A study of Rattus norvegicus with 6 samples.

Results

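The nuclei described here are the Chst9 and Grm8 neurons of the nucleus accumbens shell, a group rich in transcripts of Oprm1, the gene of the mu opioid receptor. They were chosen from their own counts: a nucleus was a member when it held at least 2 UMIs (unique molecular identifiers, each standing for 1 captured transcript) of Chst9, at least 2 of Grm8 and under 5 of Pde10a. Of 37456 nuclei that passed the filters (500 UMIs or more, 300 genes or more, mitochondrial share below 5%), 1544 were members (4.12%). The members held 7991710 UMIs, between 359887 and 3560901 in a library.

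Frozen shell tissue came from adult Long-Evans rats, an outbred strain, with no treatment named in the labels, kept in same-sex pairs until they were 90 to 100 days old. Each of the 6 libraries was 1 pool of tissue from 4 animals of 1 sex, with 3 female pools and 3 male pools. Tissue was punched out of slices of 200 µm, and its nuclei went through droplet barcoding with 10x Genomics 3' chemistry, so values are of nuclear RNA and carry no position within the shell. The replicate is the pool, so each p-value rests on how far pools differ and says nothing of single animals.

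The shell is a ventral striatal region known for its part in reward and motivation. Most of its neurons are GABA-releasing spiny projection neurons that carry either the D1 or the D2 dopamine receptor and have high levels of the phosphodiesterase Pde10a. The mu opioid receptor is a G-protein-coupled receptor for enkephalins, endorphin and drugs such as morphine. It acts through inhibitory G proteins, which lower cyclic AMP, open inwardly rectifying potassium channels and close calcium channels. In the striatum it is known to be dense in patches and sparse between them. Of the rule genes, Chst9 encodes an enzyme that adds sulfate to sugar chains, and Grm8 encodes a metabotropic glutamate receptor coupled to inhibitory G proteins.

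Libraries differed in ways that sex does not account for. The wording of the library source in the labels split them into label set A (female pool 3 and male pool 1) and label set B (the other 4 pools), a split that holds both sexes, whose meaning the labels leave unstated. The set A libraries had 16504 and 8795 kept nuclei, against 2873 to 3168 in set B, and the median mitochondrial share of the members was 0.162% and 0.232% in set A, against 1.34% to 3.56% in set B. Across genes, log2 levels in the members correlated at a Pearson r of 0.973 between the set A libraries and 0.837 to 0.939 for every other pair of libraries; genes are not independent replicates. Of all barcode sequences, 213 occurred in more than 1 library, among them those of 14 members.

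The rule genes themselves are a description and no result. Members held a median of 5 UMIs of Chst9 (2 to 56), 17 of Grm8 (2 to 182) and 1 of Pde10a (0 to 4), and 33.2% of them had none of Pde10a. Levels are given below as CPM: the nuclei of a group were summed within a library, and the UMIs of a gene were divided by the total and multiplied by 1000000. Chst9 stood at 1418, 1498 and 1349 CPM in the members of female pools 1, 2 and 3 and at 1418, 1369 and 919 CPM in those of male pools 1, 2 and 3, against 45.9 to 132 CPM in the other kept nuclei. Grm8 stood at 2375 to 4480 CPM in members, against 248 to 463 CPM in the others. Pde10a stood at 207 to 358 CPM in members, against 1209 to 2037 CPM in the others.

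Near the limits of the rule, Oprm1 differed little between nuclei just inside and just outside for Grm8, and more for Chst9 and Pde10a. The 67 members with exactly 2 UMIs of Grm8 had 149 CPM of Oprm1, against 145 CPM in the 101 nuclei that missed the rule with 1 UMI of Grm8. The 331 members with exactly 2 UMIs of Chst9 had 241 CPM, against 160 CPM in the 775 nuclei with 1 UMI. The 129 members with 4 UMIs of Pde10a had 337 CPM, against 251 CPM in the 90 nuclei with 5 UMIs and 128 CPM in all 1128 nuclei that missed the rule through Pde10a alone. The members nearest each limit thus had lower Oprm1 levels than the members as a whole, which held 390 CPM when all libraries were summed.

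**Figure D1:**
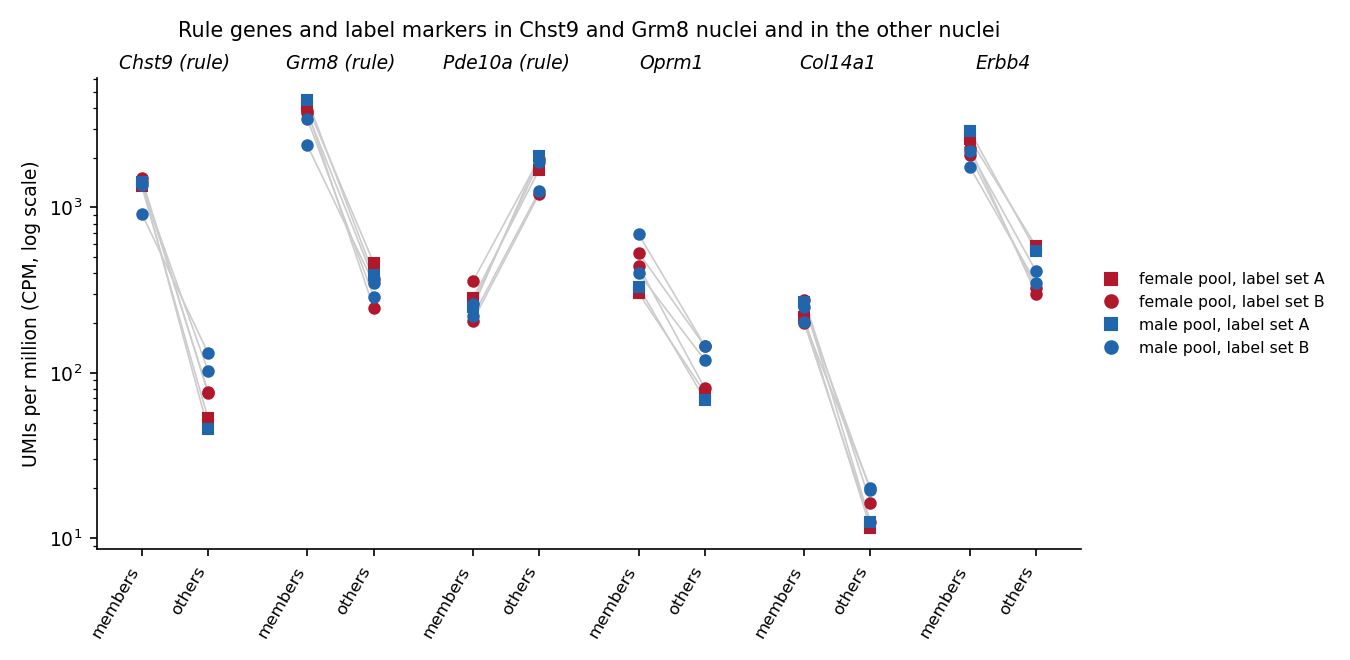
CPM (log scale) of the 3 rule genes and of Oprm1, Col14a1 and Erbb4 in members (left of each pair) and in the other kept nuclei (right), with 1 point per library; squares are label set A and circles label set B, red is female and blue is male. For Oprm1, Col14a1 and Erbb4 the members of every library lie above the other nuclei of every library, with Oprm1 at 303 to 689 CPM in members and 68.8 to 146 CPM in the others.

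The 3 markers of the label that the rule did not use, Oprm1, Col14a1 and Erbb4, were all higher in members in 6 of 6 libraries. Of all 9860 genes with at least 10 CPM on average, 13% did so. Because the members were chosen from the same counts, and the markers with earlier results of these data known, these levels are a description. They are no test and no check of the label. Oprm1 stood at 533, 442 and 303 CPM in the members of female pools 1, 2 and 3 and at 330, 689 and 401 CPM in those of male pools 1, 2 and 3, against 145, 80.5, 75.7, 68.8, 146 and 119 CPM in the other nuclei of the same pools. The groups did not overlap, the median ratio was 4.37, and the log2 ratio averaged 2.09 ± 0.265 (SD, n = 6 libraries, with 1 CPM added to both levels). The 2 set A libraries had the lowest Oprm1 levels, in members and in the others alike, and the mean log2 ratio was 2.12 in set A and 2.07 in set B.

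Col14a1, which encodes a fibril-associated collagen, stood at 276, 200 and 216 CPM in the members of the female pools and 267, 250 and 203 CPM in those of the male pools, against 11.5 to 20.1 CPM in the other nuclei (median ratio over the libraries 16.5). Erbb4, which encodes a neuregulin receptor, stood at 2064, 2292 and 2605 CPM in the members of the female pools and 2899, 2187 and 1757 CPM in those of the male pools, against 301 to 583 CPM in the others (median ratio 5.32). For both genes the members of every library lay above the other nuclei of every library. Gad1, which makes the GABA-synthesizing enzyme, was found with at least 1 UMI in 84.3% of members, and Gad2 in 74.2%.

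To see where the members lie without the rule genes, all kept nuclei were clustered with Chst9, Grm8, Pde10a and the sex-limited genes left out, which gave 25 clusters. Cluster 12, of 1274 nuclei, held 981 members, which is 63.5% of all members and 77.0% of the cluster. Its leading genes were Chst9, Col14a1, Grm8, Eya2, Vwc2l, Erbb4, Oprm1, St6galnac3, Marchf3 and Mdfic. A median of 75% of a member's 20 nearest neighbours in the clustering were members too, against 0 for other nuclei, and the means were 60.5% and 1.55%. The share of members in cluster 12 was 64.0%, 68.0% and 62.2% in female pools 1, 2 and 3 and 74.8%, 62.7% and 48.3% in male pools 1, 2 and 3, so every library gave cluster 12 nuclei. The rule also missed 293 nuclei of cluster 12: 207 had under 2 UMIs of Chst9 (101 of them none), 22 under 2 of Grm8 and 86 had 5 or more of Pde10a, with some missing on more than 1 count.

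The other 563 members were spread over 23 of the remaining 24 clusters and were not of 1 kind. Cluster 6, led by Mdfic, Eya2 and Foxp2, held 110 of them. Cluster 7, led by Bnc2 and Reln, held 84, and cluster 11, led by Lypd6b and Sema3c, held 46. Glial genes led 3 others: cluster 13 (oligodendrocyte genes such as Mog and Mobp) held 81 members, cluster 8 (astrocyte genes such as Slc1a2 and Slc1a3) held 50 and cluster 14 (microglial genes such as Ikzf1 and Inpp5d) held 32. The doublet score was high in many of these: 45.7% of the members in cluster 13, 64.0% in cluster 8 and 15.6% in cluster 14 were among the nuclei marked as likely doublets, against 0.306% of the members in cluster 12. Cluster 4, with the glutamate neuron gene Slc17a7 among its leading genes, held 29 members, of which 34.5% were so marked. Main values are given below for the members inside and outside cluster 12.

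**Figure D2:**
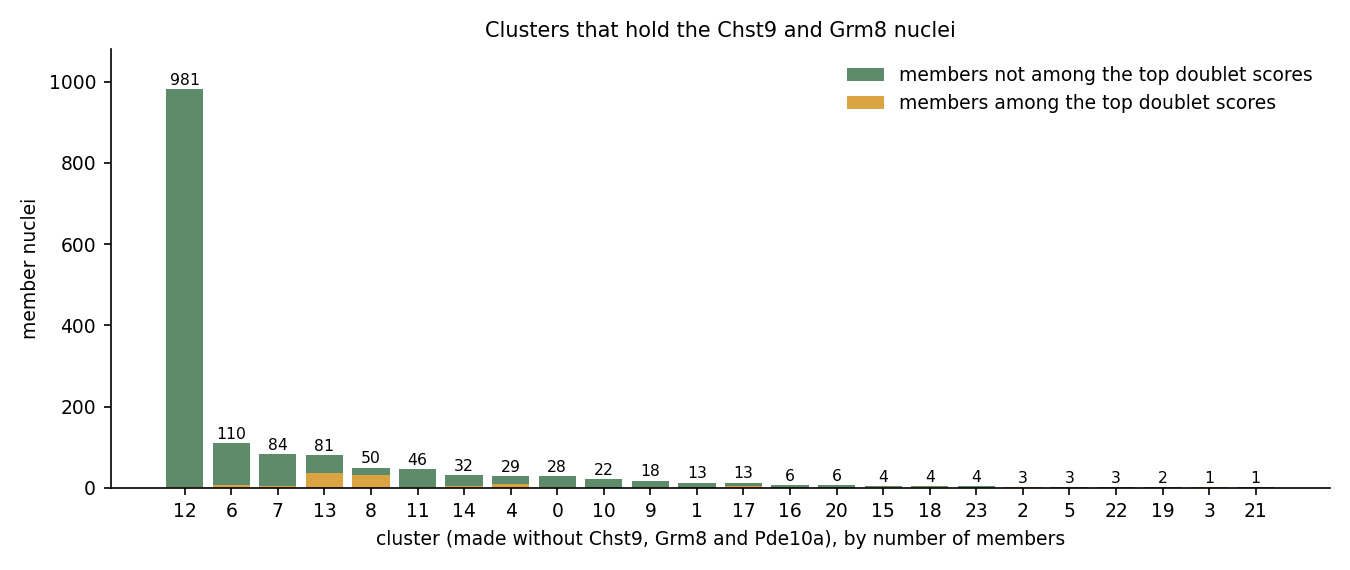
Number of members in each cluster that holds any, with the count above each bar; the orange part is the members among the nuclei with the highest doublet scores. Cluster 12 holds 981 of the 1544 members with almost no orange, while clusters 13 and 8 hold 81 and 50 members of which 45.7% and 64.0% are orange.

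Oprm1 was higher in the members of cluster 12 than in the members outside it in 6 of 6 libraries, at 399 to 964 CPM inside and 146 to 365 CPM outside. Col14a1 stood at 295 to 474 CPM inside and 59.9 to 101 CPM outside, and Erbb4 at 2973 to 3676 CPM inside and 940 to 1681 CPM outside. Gad1 stood at 574 to 654 CPM inside and 340 to 395 CPM outside. For Oprm1, Col14a1, Erbb4 and Gad1 the inside and outside levels did not overlap. How many of all genes were so divided was not counted, so these genes are not shown to stand out. These genes were not left out when the clusters were made, so the difference between inside and outside is a description that the clustering can itself set.

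Within a cluster, summed over libraries, members held more Oprm1 than non-members in 9 of the 9 clusters with at least 25 members, but this did not hold in every library. How many of all genes did the same was not counted, so it is not shown to be particular to Oprm1. In cluster 8, for one, Erbb4 stood at 2134 CPM in members and 549 CPM in non-members. In cluster 0 it was lower in members, at 153 CPM against 240 CPM. In cluster 12 itself the members had 755, 556, 399, 430, 964 and 636 CPM in female pools 1, 2 and 3 and male pools 1, 2 and 3, against 631, 504, 387, 346, 702 and 893 CPM in the 15 to 148 nuclei of each library that the rule missed. Members of cluster 12 were thus higher in 5 of 6 libraries and lower in male pool 3, and the ranges overlapped. In cluster 6 the 4 to 50 members of each library had 267 to 521 CPM, against 134 to 212 CPM in the non-members, higher in 6 of 6 libraries and without overlap. In cluster 7 members were higher in 3 of 6 libraries. In the clusters led by glial genes, members were higher in 6 of 6 libraries in clusters 13 and 8, and in 4 of the 5 libraries with members in cluster 14. Members there numbered from 1 to 53 in a library, and those of male pool 1 in cluster 14 had no UMI of Oprm1.

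Counted per nucleus, Oprm1 was seen with at least 1 UMI in 70.3% of members, against 25.8% of the other nuclei, at nearly the same median depth (4374.5 and 4374 UMIs per nucleus). After each nucleus was thinned to 2000 UMIs, which left out 105 members and 7515 other nuclei as too shallow, the shares were 49.8% and 13.2%. Thinned shares were 58.6% in the members of cluster 12, 35.6% in the members outside it, 24.2% in the non-members of cluster 6 and 10.6% in D2 spiny neurons. Oligodendrocytes, which should lack the gene, gave 5.32% after thinning and 7.34% before it (median depth 2288 UMIs), all libraries together. Their gate left out nuclei with any UMI of Gad1 or Gad2, so stray neuronal RNA can be under-counted there. The part of free RNA in the member share was not tested. Of the members, 458 (29.7%) had no UMI of Oprm1, 359 had 1 and 191 (12.4%) had at least 5, up to 17. No gene had a Spearman correlation with Oprm1 above 0.2 over the 1439 thinned members (highest 0.182, for Grm8, of 6398 genes), and none is named as alike.

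**Figure D3:**
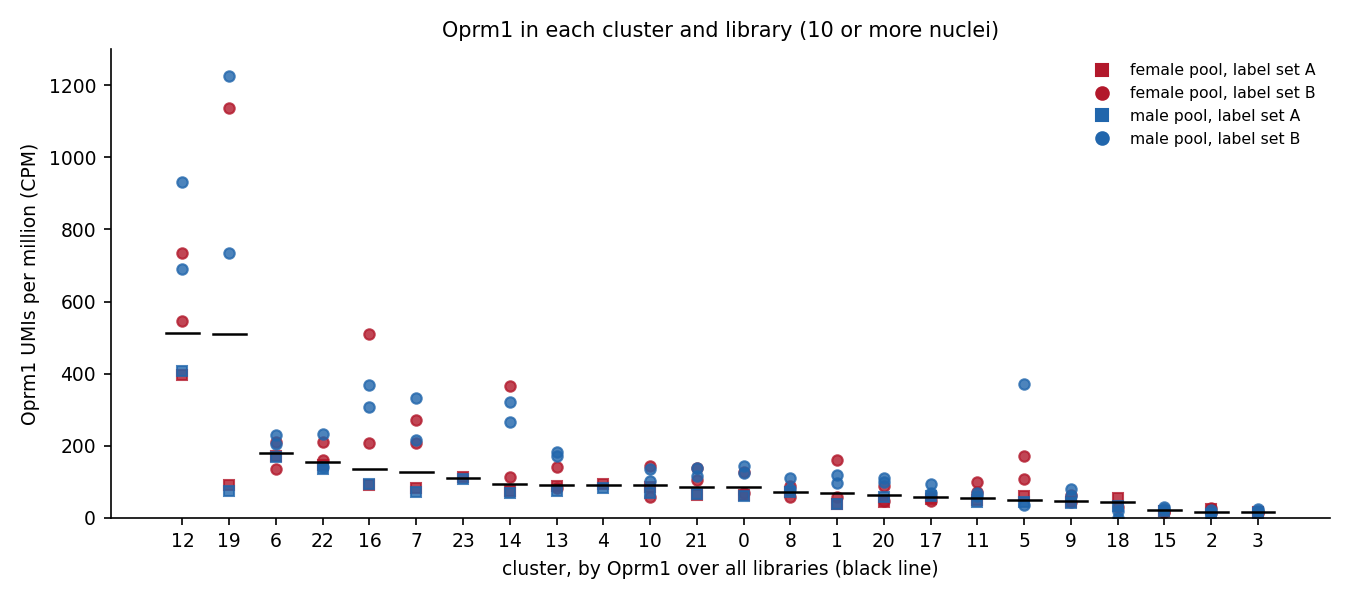
Oprm1 level (CPM) in each cluster and library with at least 10 nuclei, members and non-members together, ordered by the level over all libraries (black line); squares are label set A and circles label set B, red is female and blue is male. Cluster 12 lies at 396 to 931 CPM in all 6 libraries, and cluster 19 reaches 735 to 1227 CPM in 3 set B libraries while it lies at 75.1 and 92.4 CPM in the set A libraries.

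Across clusters with at least 10 nuclei in a library, cluster 12 had the highest Oprm1 level in female pools 2 and 3 and in male pool 1. In female pool 1 and male pools 2 and 3 it had 734, 931 and 692 CPM, and cluster 19, led by microglial genes, had 1136, 1227 and 735 CPM there. In set A the order was the reverse and the gap wide, with 396 and 407 CPM in cluster 12 and 92.4 and 75.1 CPM in cluster 19. Cluster 6 had 137 to 229 CPM, below cluster 12 in every library. In female pool 1 and male pools 2 and 3, cluster 16 had 510, 307 and 370 CPM, cluster 7 had 272, 332 and 217 CPM and cluster 14 had 366, 321 and 265 CPM, each above the 211, 229 and 205 CPM of cluster 6 there. High Oprm1 was thus shared with cluster 19 in 3 of the 4 set B libraries, and 2 of the 452 nuclei of cluster 19 were members. Female pool 2, the other set B library, had 8 nuclei of cluster 19 with 3 UMIs of Oprm1 (331 CPM), too few to rank.

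Most of the other opioid genes were lower in members or mixed. Of the 8 receptor and peptide genes listed, 5 had at least 10 CPM on average: Oprm1 was higher in members in 6 of 6 libraries, 3 were lower in 6 of 6 and Penk was mixed. Over all 9860 genes at that level, 13% were higher and 14% lower in 6 of 6 libraries, and the median log2 ratio was 0.0086. Oprd1, the delta opioid receptor gene, stood at 13.7 to 18.5 CPM in members, against 37.0 to 79.7 CPM in the others, without overlap (log2 ratio -1.66). Oprk1, the kappa receptor gene, had a log2 ratio of -0.73, and Pdyn, the dynorphin precursor gene, of -0.69. Penk, the enkephalin precursor gene, stood at 63.7 to 311 CPM in members and 63.0 to 284 CPM in the others. Oprl1, the nociceptin receptor gene, was higher in members in 6 of 6 libraries but below the limit of 10 CPM (6.46 to 25 CPM in members, 5.01 to 9.03 CPM in the others).

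In the pathway through which the receptor acts, 4 of the 21 measured genes were higher in members in 6 of 6 libraries and 5 lower. These counts are to be read beside 13% and 14% of all 9860 genes, and the median log2 ratio of the list was -0.0033. The 4 higher genes were the potassium channel genes Kcnj3 and Kcnj6 and the inhibitory G protein genes Gnai1 and Gnai2. Kcnj3 stood at 540, 442 and 721 CPM in the members of female pools 1, 2 and 3 and 794, 478 and 420 CPM in those of male pools 1, 2 and 3, against 91.2, 60.8, 312, 221, 78.0 and 95.1 CPM in the other nuclei. Members of every library lay above all other nuclei, and both groups were highest in the set A libraries (median ratio 5.17). Kcnj6, its partner subunit, stood at 20, 50.0 and 40.4 CPM in the members of the female pools and 41.6, 30.2 and 10.3 CPM in those of the male pools, against 9.53, 4.92, 31.4, 22.3, 6.52 and 6.84 CPM in the others, and these ranges overlapped between libraries (median ratio 1.98). Gnai1 and Gnai2 had median ratios of 1.48 and 1.33. The 5 lower genes were Adcy5, the main striatal adenylyl cyclase (log2 ratio -1.11), Rgs9, which speeds G protein shut-off (-1.09), the receptor kinase Grk5 (-0.58), the arrestin Arrb1 (-0.26) and the G protein gene Gnao1 (-0.20).

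Of the 5764 genes with at least 20 CPM in the members of each library, 6 (0.104%) were at least 4 times higher in members in every library: Mdfic, Eya2, Col14a1, Erbb4, Vwc2l and Marchf3. Oprm1 was not among them, since its ratio was under 4 in some libraries. A ratio of at least 2 in every library held for 43 genes (0.746%). In the members of cluster 12 alone, 12 genes passed the 4-fold limit, and without any limit on Pde10a only 1 did.

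The 20 named genes that were highest in members were led, after Col14a1, by Eya2 and Vwc2l. Eya2, a transcriptional coactivator, stood at 281, 350 and 407 CPM in the members of the female pools and 422, 309 and 206 CPM in those of the male pools, against 30.4 to 46.0 CPM in the others (median ratio 8.70). Vwc2l, a secreted protein with von Willebrand C domains, stood at 721, 586 and 836 CPM in the members of the female pools and 826, 629 and 470 CPM in those of the male pools, against 59.0 to 138 CPM in the others (median ratio 7.46). Mdfic, an inhibitor of MyoD-family factors, stood at 72.2 to 103 CPM in members, against 6.09 to 19 CPM in the others (median ratio 5.47). For each of the 3 genes, members of every library lay above the other nuclei of every library.

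Marchf3, a membrane ubiquitin ligase, stood at 298 to 507 CPM in members, against 63.3 to 107 CPM in the others (median ratio 4.39). Cacna1g, a low-voltage-activated calcium channel gene, stood at 113 to 190 CPM in members, against 17.5 to 73.9 CPM in the others, with the others highest in set A (median ratio 4.25). Atp2b4, a plasma membrane calcium pump gene, had a median ratio of 4.08, and Gng4, a G protein gamma subunit gene, of 3.86. Grin3a, an NMDA receptor subunit gene, stood at 160 to 293 CPM in members, against 61.1 to 95.1 CPM in the others (median ratio 3.34). Foxp2, a forkhead transcription factor gene, stood at 2515, 2856 and 3456 CPM in the members of the female pools and 3959, 3062 and 2334 CPM in those of the male pools, against 795 to 1140 CPM in the others (median ratio 3.03). Cux2, a homeobox factor gene, had a median ratio of 2.97. The rest of the 20 were St6galnac3 (a sialyltransferase), Sphkap (an anchor of protein kinase A), Sdk2 (a synaptic adhesion molecule), Wls (a Wnt carrier), Nrip3 and Khdrbs3 (an RNA-binding protein), with median ratios between 2.97 and 4.01.

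The 10 named genes that were lowest in members were led by Drd2, the D2 dopamine receptor gene. It stood at 15.4, 30.6 and 9.27 CPM in the members of female pools 1, 2 and 3 and 11.5, 13.7 and 17.6 CPM in those of male pools 1, 2 and 3, against 133, 195, 159, 188, 200 and 126 CPM in the other nuclei (log2 ratio -3.40). Among nuclei that met the Chst9 and Grm8 limits, Drd2 stood at 8.48 CPM with 0 UMIs of Pde10a and 170 CPM with 5 or more. The rule's limit on Pde10a can thus itself set the low Drd2 level of members. Prkch, a protein kinase C gene, stood at 3.84 to 50.0 CPM in members, against 102 to 181 CPM in the others (log2 ratio -2.89). Ca12, a carbonic anhydrase gene, had a log2 ratio of -2.63, and Kitlg, the KIT ligand gene, of -2.43. Nexn (an actin-binding protein, -2.36), Slit3 (an axon guidance molecule, -2.23), Fstl4 (-2.11), Bcas1 (-2.06), Syndig1 (a synapse protein, -2.03) and Man1a1 (a mannosidase, -2.02) made up the rest.

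**Figure D4:**
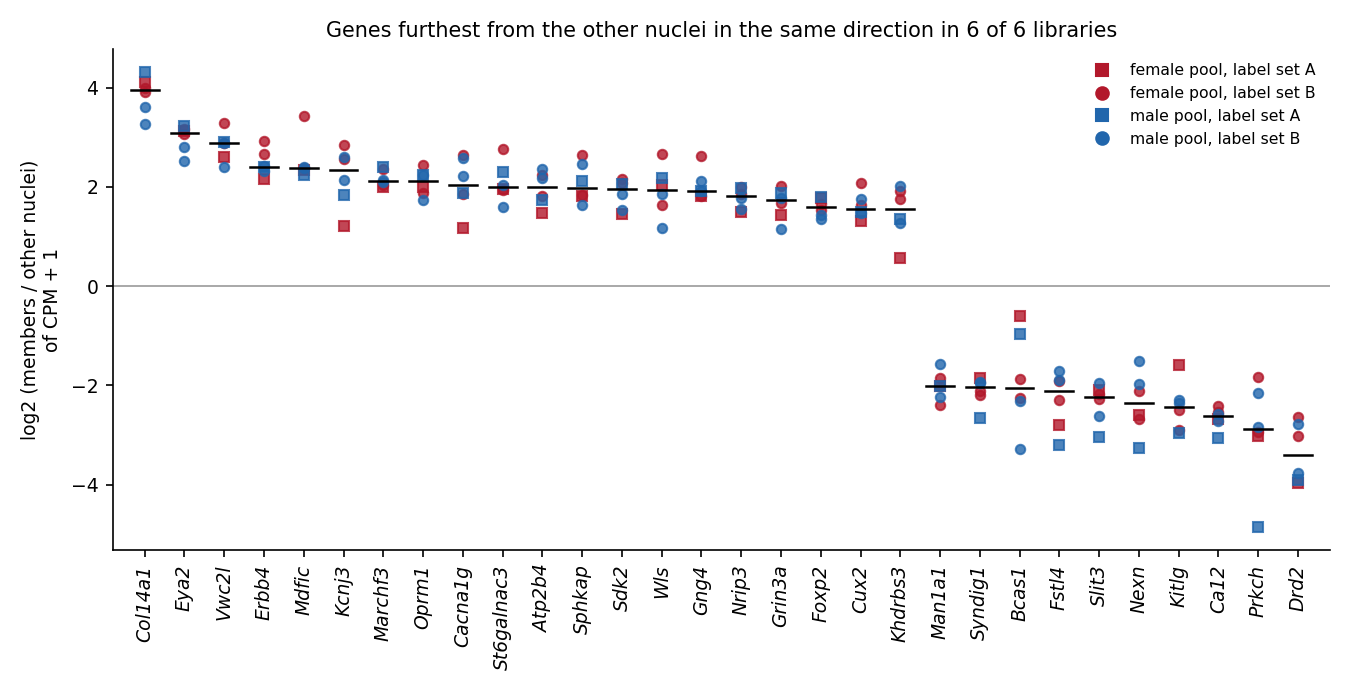
Log2 ratio of members over the other kept nuclei (1 CPM added to both) for the 20 highest and 10 lowest named genes, with 1 point per library and the median as a black line; squares are label set A and circles label set B, red is female and blue is male. Col14a1 is highest with a median of 3.95 and Drd2 lowest with -3.40, and all 6 libraries of each gene lie on the same side of 0.

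Genes of typical spiny neurons were mostly lower in members. Of 11 measured spiny neuron genes, 10 were lower in 6 of 6 libraries and 1, the homeobox gene Meis2, was higher. Their median log2 ratio was -1.05. Over all 9860 genes, 13% were higher and 14% lower in 6 of 6 libraries, to be read beside this and the next lists. The rule took only nuclei low in Pde10a, a gene high in spiny neurons, so the rule can itself set this difference. Ppp1r1b, which encodes DARPP-32, stood at 22.7 to 72.2 CPM in members, against 68.6 to 173 CPM in the others. Foxp1, a forkhead factor of spiny neurons, stood at 148 to 212 CPM in members, against 502 to 821 CPM in the others. Meis2 stood at 1160 to 2422 CPM in members, against 851 to 1677 CPM in the others. Of 5 measured D2 genes, 4 were lower (Drd2, Adora2a, Gpr6 and Ptprm), and of 5 measured D1 genes 3 were lower (Pdyn, Tac1 and Isl1) and 1 was higher (Sfxn1). Drd1 could not place the members, since it was hardly counted in these files: it stood at 3.63 to 17.9 CPM in members and 4.4 to 17.7 CPM in the others.

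Among genes listed for GABA neurons, Gad1, Slc32a1 (the vesicular GABA transporter), Snap25 and Syt1 were higher in members in 6 of 6 libraries. Gad2 was higher in members in 2 of 6 libraries, and Rbfox3 in 1 of 6. Gad1 stood at 462 to 553 CPM in members, against 299 to 384 CPM in the others, without overlap. Of the genes listed for interface islands, which are small cell groups at the edge of the ventral striatum, 4 were measured, and Foxp2 and Oprm1 were higher in 6 of 6 libraries. Rxfp1 and Cpne4 were higher in 5 of 6. Tshz1 stood below the limit, at 2.78 to 11.0 CPM in members and 1.13 to 2.31 CPM in the others. Of 4 measured genes of Drd3-bearing granule neurons, Foxp2 and Mef2c were higher and Drd3 and Rreb1 lower in 6 of 6 libraries, with Drd3 at 25 to 35.9 CPM in members and 43.2 to 79.9 CPM in the others.

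Transcription factor genes of the striatum were divided. In 6 of 6 libraries, 6 of 16 were higher and 6 lower, against 13% and 14% of all 9860 genes. The higher ones were Foxp2, Nfib (log2 ratio 1.38), Pbx3 (1.11), Foxp4 (0.89), Meis1 (0.74) and Meis2 (0.52). Pbx3, a TALE homeobox gene, stood at 838 to 1090 CPM in members, against 370 to 551 CPM in the others. The lower ones were Foxp1 (-1.92), the retinoic acid receptor gene Rarb (-1.54), Isl1 (-1.43), Zfhx3 (-0.67), Bcl11b (-0.36) and Ikzf2 (-0.11). Thus 2 forkhead genes of 1 family, Foxp2 and Foxp1, lay on opposite sides.

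Receptors for the fast transmitters were divided as well, to be read beside the 13% of all 9860 genes that were higher and the 14% lower. Of 13 measured ionotropic glutamate receptor genes, Gria1, Gria4, Grin1, Grin3a and Grik3 were higher and Gria2, Gria3, Grin2b, Grik1 and Grik2 lower in 6 of 6 libraries. Gria3, an AMPA receptor subunit gene, stood at 125 to 391 CPM in members and 458 to 755 CPM in the others. Of 11 measured GABA-A receptor genes, Gabra3, Gabrb1, Gabrb2 and Gabrg3 were higher and Gabra2, Gabra4, Gabrg1 and Gabrd lower. Gabra3 stood at 142 to 220 CPM in members, against 101 to 119 CPM in the others, and Gabrd, the subunit of tonic inhibition, at 9.09 to 30.6 CPM in members and 19.1 to 58.5 CPM in the others. Of the metabotropic glutamate receptor genes other than Grm8, Grm7, of the same receptor group, was higher (median ratio 1.25), and Grm3 and Grm5 were lower (log2 ratios -0.87 and -0.37).

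Relatives of the other marker genes are given as counts, to be read beside the 13% of all 9860 genes that were higher in members in 6 of 6 libraries and the 14% that were lower. Among 13 measured sulfotransferase genes other than Chst9, none was higher in 6 of 6 libraries and 3 were lower (Chst15, Hs6st1 and Hs6st2), with Chst15 at 12.2 to 30.6 CPM in members and 59.3 to 135 CPM in the others. Of 7 measured collagen genes, Col14a1 was higher and Col25a1 lower. Of 5 measured neuregulin and ErbB genes, Erbb4 was higher, Egfr was lower (log2 ratio -0.86) and the ligand genes Nrg1, Nrg2 and Nrg4 were mixed. Of 11 measured phosphodiesterase genes other than Pde10a, Pde1a and Pde4d were higher and 6 were lower, with a median log2 ratio of -0.74.

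Few hormone and peptide receptor genes reached 10 CPM. Of 26 listed, 7 were measured, Crhr1 was lower in 6 of 6 libraries and none was higher. This and the next lists are to be read beside the 13% of all 9860 genes that were higher and the 14% that were lower. Among the measured steroid-related genes, Sgk1 and Esr1 were lower in 6 of 6 libraries. Of 5 measured immediate early genes, Nr4a1 and Homer1 were lower and none was higher. Sst, Nos1, Chat and Slc5a7, genes of striatal interneurons, were mixed, and Npy was at 0 in all members.

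Summed glial markers tended to be lower in members than in the other nuclei, and they were higher in the members outside cluster 12 than in those inside it. The 5 oligodendrocyte genes summed to 349 to 751 CPM in members and 566 to 1691 CPM in the others, with 218 to 347 CPM in the members of cluster 12 and 416 to 1161 CPM in the members outside it. The 5 astrocyte genes summed to 82.4 to 255 CPM in members and 268 to 411 CPM in the others, with 49.4 to 80.8 CPM in the members of cluster 12 and 89.9 to 634 CPM in the members outside it. For both lists the members inside and outside cluster 12 did not overlap. The 4 microglial genes summed to 10.3 to 43.9 CPM in members and 17.4 to 59.0 CPM in the others, and Cx3cr1 was at 0 in all members of cluster 12. Of neurons next to the shell, 4 septal and pallidal genes were measured, and Trpc4 and Sema3c were higher in members in 6 of 6 libraries, with the list summing to 172 to 239 CPM in members and 61.9 to 177 CPM in the others. Of 3 measured genes of eccentric spiny neurons, Pcdh8 was higher in 6 of 6 libraries. The part of these other cells in the levels above was not tested; with likely doublets left out, the mean log2 ratio of Oprm1 was 2.12, against 2.09 with them.

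D2 spiny neurons give a comparison with neurons of 1 kind. They were gated as nuclei with at least 2 UMIs of Drd2, at least 5 of Pde10a and none of Drd1, which gave 4661 nuclei. This gate lies on the other side of the rule's limit on Pde10a, so the 2 gates can themselves set differences, above all in Drd2. The D2 nuclei were also deeper, with a median of 7565 UMIs per nucleus, against 4374.5 in members. Against them, Oprm1 was higher in members in 6 of 6 libraries, at 303 to 689 CPM in members and 52.8 to 140 CPM in D2 spiny neurons (log2 ratio 2.53). Of the 5764 genes with at least 20 CPM in members, 16 (0.278%) were at least 4 times higher and 95 (1.65%) at least 2 times higher in every library. Over all 9618 genes at 10 CPM or more, 20.3% were higher and 12.6% lower in members in 6 of 6 libraries.

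The genes furthest above D2 spiny neurons were Erbb4 (73.8 to 388 CPM in D2 spiny neurons, log2 ratio 4.47), Cacna1g (4.12), Col14a1 (4.07), Mdfic (3.95) and Kcnk10, a potassium leak channel gene (3.88). Kcnk10 stood at 54.3 to 103 CPM in members, against 2 to 33.5 CPM in D2 spiny neurons. Kcnj3 (3.60), Nfib (3.27), Vwc2l (3.22), Gng4 (3.17), Adarb2 (3.12), Foxp2 (3.11), Grin3a (2.96), Trpc4 (2.93), Eya2 (2.92), Cadps2 (2.91), Pld5 (2.74) and St6galnac3 (2.73) followed. Kcnj6 was also higher in 6 of 6 libraries. Thus the channel genes Kcnj3 and Cacna1g, the factor genes Foxp2 and Nfib and the 3 label markers were higher against both sets of nuclei.

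The genes furthest below D2 spiny neurons were, beside Drd2 itself, the adenosine receptor gene Adora2a, Prkch, Sh3rf2, Oprd1, Ca12, Myo3a, Kitlg, Syt10 and Foxp1. Adora2a stood at 5.49 to 27.8 CPM in members, against 131 to 255 CPM in D2 spiny neurons. Oprd1 stood at 13.7 to 18.5 CPM in members, against 119 to 207 CPM in D2 spiny neurons (log2 ratio -3.30). Penk stood at 63.7 to 311 CPM in members, against 134 to 661 CPM in D2 spiny neurons, and was lower in 6 of 6 libraries. The mu and delta receptor genes thus lay on opposite sides, with more Oprm1 and less Oprd1 in members than in D2 spiny neurons.

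Cluster 6, which held the next largest number of members, shares the leading genes Mdfic, Eya2 and Vwc2l with cluster 12. Against its 1862 non-members, the members had as much or less Foxp2 (lower in 6 of 6 libraries, log2 ratio -0.20) and Mdfic (lower in 5 of 6, -0.58), while Pbx3 was near equal (-0.03). Higher in members in 6 of 6 libraries were Col14a1 (3.49), Nfib (3.30), Kcnj6 (3.05), Marchf3 (2.50), Trpc4 (2.30), Kcnj3 (1.88), Cacna1g (1.77) and Oprm1 (1.31). Erbb4 (0.94), Vwc2l (0.86) and Eya2 (0.65) were higher by less. Oprm1 stood at 303 to 689 CPM in members and 134 to 212 CPM in these non-members, without overlap. Summed over libraries, these non-members held 2904 CPM of Pde10a, so the rule's limit on Pde10a can itself set differences here too. The share of all genes that were higher or lower against them in every library was not counted.

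The share of members did not separate the sexes. It was 5.18%, 3.38% and 4.39% of kept nuclei in female pools 1, 2 and 3 (95% Wilson intervals 4.46% to 6%, 2.78% to 4.10% and 4.09% to 4.72%). It was 2.89%, 4.93% and 5.01% in male pools 1, 2 and 3 (2.56% to 3.26%, 4.23% to 5.75% and 4.29% to 5.85%). The intervals cover counting error only. Female pools averaged 4.32% ± 0.903 and male pools 4.28% ± 1.2 (SD, n = 3 pools each), a difference of 0.0386 points (2-sided exact permutation p = 1, where 3 against 3 pools can reach 0.1 at best). The female minus male difference was 1.5 points in set A and -0.695 points in set B, so the libraries differed more than the sexes.

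Counts of the members were summed per pool and tested between the sexes with label set as a covariate (edgeR quasi-likelihood test, Benjamini-Hochberg adjustment over 10262 genes). The genes that passed were 7 (0.0682%), of which 2 (0.0195%) rose and 5 (0.0487%) fell in females. At an unadjusted 0.05, 697 passed, and without female pool 2 the adjusted count was 19. Kdm5d, a Y-linked histone demethylase gene, stood at 4.54, 5.56 and 2.81 CPM in the members of female pools and 113, 115 and 119 CPM in those of male pools (log2 fold change -4.97, SE 0.29, edgeR adjusted p = 1.84e-08; within the label sets, -4.91 in A and -4.29 in B). Eif2s3y, a Y-linked translation initiation factor gene, had no UMI in the members of any female pool and stood at 67.9, 86.5 and 73.4 CPM in those of male pools, which held 219 UMIs (edgeR adjusted p = 1.49e-07). A feature that the files name Ddx3 had 3 UMIs in the members of female pools and 266 in those of male pools, a male to female ratio of 150 with a counting interval of 50.7 to 731 (edgeR adjusted p = 1.16e-07). The Y-linked genes thus followed the labels in every pool.

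The other 4 genes that passed have only clone or LOC symbols. AC241873.1 fell in females, with 17.3, 16.7 and 4.49 CPM in female pools and 238, 187 and 182 CPM in male pools. AC239701.4 fell as well, with 2 UMIs in the members of female pools and 128 in those of male pools, and passed in 14 of 19 other settings. LOC680227 rose, with 3987, 1548 and 358 CPM in female pools, which differ widely among themselves, and 8.33, 5.49 and 2.94 CPM in male pools. AABR07039356.2 rose too, with 295, 467 and 429 CPM in female pools and 3.2, 1.37 and 1.47 CPM in male pools.

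**Figure D5:**
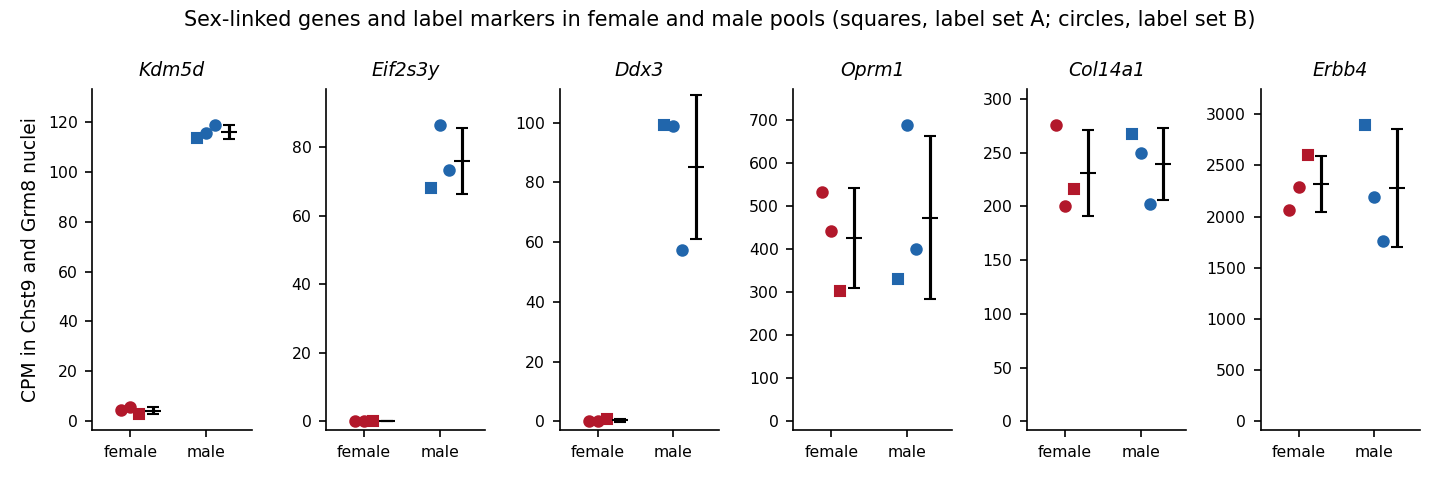
CPM of 3 genes that fell in females (Kdm5d, Eif2s3y and Ddx3) and of 3 label markers (Oprm1, Col14a1 and Erbb4) in the members of female pools (left, red) and male pools (right, blue), with the mean and SD of 3 pools beside the points; squares are label set A and circles label set B. The sexes do not overlap for the first 3 genes and overlap for the label markers, with Oprm1 at 303 to 533 CPM in females and 330 to 689 CPM in males.

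The label markers did not pass between the sexes. Oprm1 averaged 426 ± 116 CPM in the members of female pools and 473 ± 190 CPM in those of male pools (SD, n = 3; log2 fold change -0.12, SE 0.19, 95% interval -0.53 to 0.28, edgeR adjusted p = 0.923). Col14a1 averaged 231 ± 40.1 CPM in females and 240 ± 33.4 CPM in males (log2 fold change -0.03, 95% interval -0.40 to 0.34). Erbb4 averaged 2320 ± 271 CPM in females and 2281 ± 577 CPM in males (0.06, -0.32 to 0.44). Each of the 3 intervals includes 0 and is wide against the fitted difference.

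The 5 genes nearest the threshold that are not sex-linked were Pdzrn3, Zeb2, Rps23, Pcbp2 and H3f3a, with edgeR adjusted p of 0.0964, 0.115, 0.150, 0.150 and 0.282. Pdzrn3, a ubiquitin ligase gene, stood at 12.7, 8.34 and 193 CPM in female pools and 64.7, 4.12 and 8.81 CPM in male pools, high in both set A libraries. It is among the leading genes of cluster 4, which held 26 members of female pool 3, 3 of male pool 1 and none of the other pools. With likely doublets left out, its edgeR adjusted p was 0.623, and the part of cluster 4 in its level was not tested. Zeb2, a zinc finger factor gene, stood at 109, 66.7 and 319 CPM in female pools and 184, 27.5 and 44 CPM in male pools, again high in set A. Pcbp2, whose product binds RNA, stood at 14.5, 5.56 and 9.55 CPM in female pools and 20.5, 48.1 and 48.4 CPM in male pools, without overlap. The summed glutamate neuron genes were 75.5 to 80.0 CPM in the members of female pools and 31.6 to 73.0 CPM in those of male pools, and their part in these values was not tested.

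Of the listed genes, those that passed were all on the sex-linked list; under the alternatives, Nr4a3 passed in 2 of 19, Grik1 in 1 of 18 and Gria3 in 1 of 20. None of the 21 opioid signalling genes tested did (median log2 fold change 0.08, 17 of them positive), nor any of the 6 opioid receptor and peptide genes (median -0.11). Over all 10262 genes the median was -0.0077, and 5031 of them were positive. Lists of unlike genes leaned both ways: 10 of 11 phosphodiesterase genes were positive, and 1 of 5 D1 spiny neuron genes was. Among the X-linked genes, Kdm6a, a histone demethylase gene known to escape X inactivation in human and mouse, averaged 335 ± 40.5 CPM in females and 240 ± 67.4 CPM in males (SD, n = 3, edgeR adjusted p = 0.591).

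Whether the sex difference of a gene in the members differed from that in spiny neurons was tested in 1 fit of both classes. Against D1 spiny neurons, gated by at least 2 UMIs of Drd1, at least 5 of Pde10a and none of Drd2, only 134 nuclei (2 to 44 in a library) were at hand, and 0 of 10145 genes (0%) passed in edgeR, with 272 at an unadjusted 0.05 (DESeq2 0, with 60 unadjusted); without female pool 1, 3 genes passed. The nearest were Klhl1, Nfib and Itpka, each at an edgeR adjusted p of 0.233. Against D2 spiny neurons, a comparison added after the data were seen, 0 of 12647 genes (0%) passed in edgeR, with 536 at an unadjusted 0.05; without male pool 1, 4 genes passed, and without female pool 1, 1 did. The nearest was Khdrbs3, at 187 ± 56.2 CPM in female and 187 ± 108 CPM in male members, against 57.8 ± 45.2 CPM in female and 33.3 ± 36.7 CPM in male D2 spiny neurons (SD, n = 3, edgeR adjusted p = 0.0816).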

How the data were processed

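Members and gene lists were chosen with earlier results of these data known. The authors deposited raw UMI counts, made with Cell Ranger 4.0.0 per the file headers and with rat build rn6 per the submitters' processing notes. Every sample's columns were used. Counts were summed per library over members and over other nuclei and scaled to CPM. A list gene counted as measured at 10 CPM or more on average over both groups. A count of 3 in a library's members is 0.842 to 8.34 CPM, which covers counting error only. Named were the 20 highest and 10 lowest genes by the median log2 ratio (1 CPM added), with 1 sign in 6 of 6 libraries and at least 50 CPM in the higher group of each; by sex, each gene past an adjusted 0.05 and the next 5 not sex-linked; for the difference of sex effects, the next 3. Sums were tested with edgeR 4.0.16 in R 4.3.3 (TMM, low-count filter), checked on simulated data. Clusters used scanpy 1.11.5 and python-igraph 0.11.9 (3000 variable genes, 30 principal components, 20 neighbours, Leiden resolution 1). Scrublet's own thresholds marked 0% to 0.221% of nuclei, so no doublets were removed in the main results; the highest scores, up to a load-based rate of 0.8% per 1000 nuclei, were marked and left out in an alternative. Other alternatives changed the rule, the filters, the depth, the normalization (DESeq2 1.42.0), the libraries and the nuclei compared with. No coordinates are given, since the annotation in use is of another build. Some genes are not reported here.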

Additional observations from a re-analysis of the deposited data

How the results depend on the processing

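The share of members, female minus male (0.0386 points), changed sign in many settings and carries no direction: it was -0.164 with Pde10a under 2 UMIs, -0.768 with no limit on Pde10a, -0.0325 at 1000 UMIs or more, -0.524 under 1% mitochondrial UMIs, -0.0363 without likely doublets, -0.0683 as a share of nuclei with Gad1 or Gad2, -0.695 in set B, and -0.656 to 0.508 with 1 pool left out. The 7 genes that passed by sex became 16 under 1% mitochondrial UMIs, where female pool 2 had no members, 17 with no filter on low counts, and 6 to 19 with 1 pool left out, 19 of them without female pool 2. With the replicate block 5 passed, and Eif2s3y had an edgeR adjusted p of 0.0697. Deviations of pools with the same number in the labels correlated at -0.501, 0.126 and -0.451 for numbers 1, 2 and 3. Pools numbered 1 lie in different label sets, as do pools numbered 3. These values thus cannot decide whether the numbers pair the pools. No gene passed for the difference of sex effects against D1 spiny neurons, but 1 did under 1% mitochondrial UMIs, 2 without TMM, and 0 to 3 with 1 pool left out (3 without female pool 1, 1 without female pool 2); against D2 spiny neurons 1 passed without female pool 1 and 4 without male pool 1. The 6 genes at 4-fold became 1 with no limit on Pde10a, 12 in cluster 12 alone, 12 in set A, 16 against D2 spiny neurons, 43 at 2-fold, and 6 to 7 with 1 pool left out. The mean log2 ratio of Oprm1 (2.09) was 1.34 with no limit on Pde10a, 2.48 after thinning and 2.55 in cluster 12. It was 2.48 against D2 spiny neurons and 2.02 to 2.16 with 1 pool left out. Against the few D1 spiny neurons it was 4.46 with an SD of 3.47 over libraries, and female pool 1 had 2 such nuclei. The D1 value is thus not to be ranked against the D2 value. Log2 sex differences near 0 changed sign: Oprm1 to 0.0179 (no Pde10a limit); Col14a1 to 0.205 (no Pde10a limit), 0.0191 (1% mitochondrial), 0.0211 (doublets removed) and 0.115 (set B); Erbb4 to -0.0106 (1% mitochondrial). With 1 pool left out they ran over -0.314 to 0.138 for Oprm1, -0.234 to 0.122 for Col14a1 and -0.0613 to 0.157 for Erbb4. The difference of sex effects against D1 spiny neurons ran over -1.17 to 2.88 for Klhl1 and -1.93 to 4.62 for Nfib, each changing sign without female pool 3 or male pool 1. The cause was not tested in any of these. The settings for cluster 12 alone and for D2 spiny neurons were chosen after seeing the data.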

Other observations

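Oprm1 outside the members followed the label sets in some clusters. In cluster 19, led by the microglial genes Slco2b1, Inpp5d and Ikzf1, the nuclei of female pool 1 and male pools 2 and 3 had 1136, 1227 and 735 CPM, and at least 1 UMI was seen in 74.7%, 68.9% and 48.0% of them. The set A libraries had 92.4 CPM in female pool 3 and 75.1 CPM in male pool 1, with a UMI in 10.1% and 13.3% of nuclei. Csf1r, a defining microglial gene, stood at 863, 1082 and 1417 CPM in the same set B libraries and at 600 and 720 CPM in set A, so the cluster held microglial transcripts in both sets. Cluster 16, led by Il1rapl2, Egfr and Tfec, had 510, 208, 307 and 370 CPM of Oprm1 in set B, against 91.1 and 92.5 CPM in set A. Cluster 6 differed little, with 137 to 229 CPM in set B and 173 and 170 CPM in set A. These values were noticed after the data were seen and were not tested.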
